A study of Bos indicus with 12 samples.

Results

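IGF2 and H19 form the best known pair of imprinted genes in mammals, and in cattle they belong to the distal end of chromosome 29. The interval examined here covers chromosome 29 from 48500000 to 50000000 of the ARS-UCD1.2 genome. It was set by position, as the stretch taken to hold this imprinted domain, with earlier results of these data known. It contained 3267 of the 635469 cytosines that were covered in all 12 animals, of which 1599 lay on the plus strand and 1668 on the minus strand. Reduced representation bisulfite sequencing (RRBS), which reads methylation near the cutting sites of the enzyme MspI, had been performed on DNA of Longissimus thoracis muscle from Nelore (Bos indicus) animals. The 6 animals of the Tough group had the higher shear force, a measure of the force needed to cut the meat, and the 6 animals of the Tender group the lower. The groups differed by no treatment, and each animal gave 1 library. The animals are numbered as in the labels, Tough 1 to 6 and Tender 7 to 12.

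At an imprinted gene, the copy inherited from one parent is expressed and the other is silent. IGF2 encodes a growth factor that is expressed from the paternal copy in many tissues, including skeletal muscle, and H19 encodes a long non-coding RNA that is expressed from the maternal copy. A control region between them is methylated on the paternal copy and free of methylation on the maternal copy, so that bulk DNA reads about equal numbers of methylated and unmethylated copies there. The neighbouring genes KCNQ1, a potassium channel, CDKN1C, an inhibitor of the cell cycle, and PHLDA2, which limits placental growth, are controlled from a second region in which the maternal copy is methylated. In bulk muscle, a level between none and full can come from 1 of the 2 copies in every cell or from some of the cells, and the deposited sums cannot tell these apart.

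No gene coordinates of ARS-UCD1.2 were used here, so no cytosine is assigned to IGF2, H19 or another gene by its position, and the name of the domain could not be checked against an annotation. ARS-UCD1.2 is a Bos taurus reference genome. In the gene order of a Bos indicus assembly (NIAB-ARS_B.indTharparkar), 19 of 21 genes sought from the cluster and its flanks were listed on chromosome 29. Their order ran from OSBPL5, NAP1L4, PHLDA2, SLC22A18, CDKN1C and KCNQ1 through TSSC4, CD81, TSPAN32, ASCL2, TH and INS to IGF2, and then to MRPL23, TNNT3, LSP1, TNNI2, SYT8 and CTSD. H19 and KCNQ1OT1, the non-coding RNA of the second control region, were not found by symbol. One anchor is given for the interval itself, since the annotation made by the study names CD81, which encodes a tetraspanin of the cell surface, as the gene closest to the single differentially methylated cytosine found in it (position 49212824). IGF2 follows CD81 in the order above, and whether ARS-UCD1.2 has the same order was not checked.

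Depth was similar to that of the whole table. Before the scaling described under the methods, the median coverage of a cytosine in the interval was 18 to 32 reads per animal. Summed over its cytosines, coverage was 66923 to 111380 per animal, and a read is counted at each cytosine it covers. At the median of 23 reads, counting error alone gives a level of 50% a standard error of 10.4%, so single cytosines of single animals are read with caution and most values below are sums over neighbouring cytosines. Reads of RRBS carry no molecular identifiers, so this error covers counting only.

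The interval was more methylated than the rest of the table and held more cytosines at intermediate level. Averaged over all its cytosines, methylation reached 44.0% ± 0.714 in the Tough group and 44.7% ± 0.466 in the Tender group (mean ± SD of 6 animals each), against 29.4% ± 0.499 and 29.8% ± 0.205 over the other 632202 cytosines. Of the 3267 cytosines, 1209 (37.0%) had a mean over the 12 animals between 20% and 80%, compared with 17.8% of all cytosines. Levels between 35% and 65% were held by 544 cytosines (16.7%), compared with 7.79% of all. Cytosines below 5% were less common (26.0% against 52.4%), while those above 90% took a similar share (15.6% against 13.6%).

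**Figure D1:**
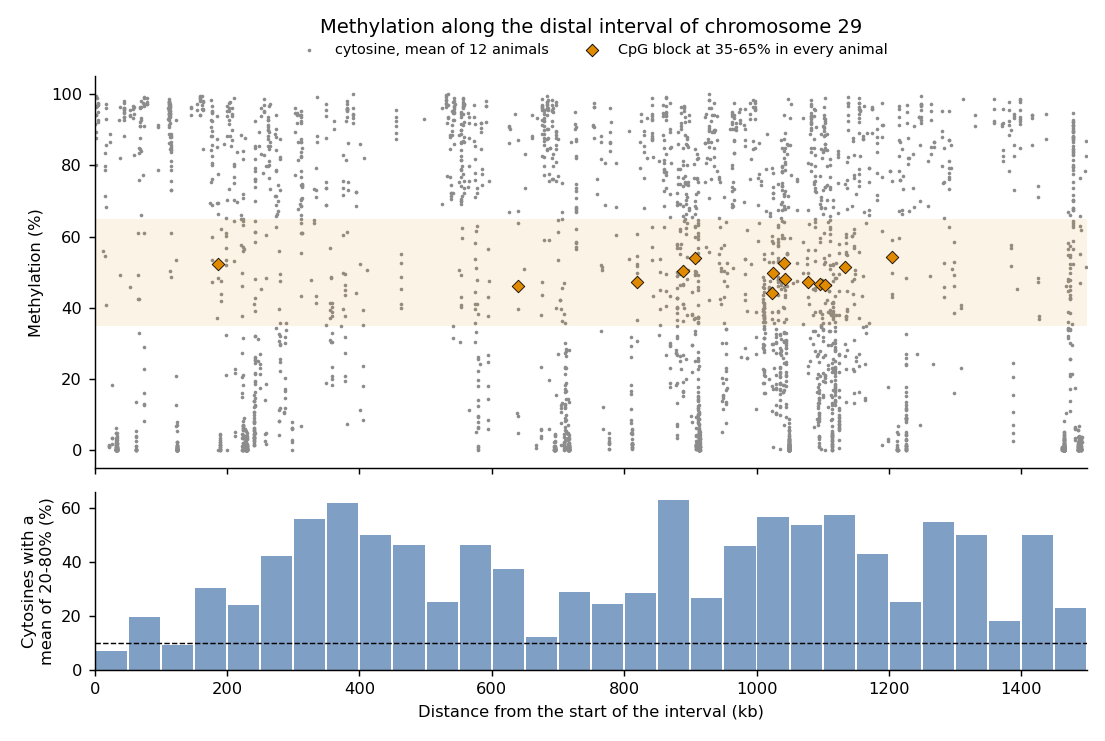
Upper panel, mean methylation (%) over the 12 animals for each of the 3267 cytosines against the distance from the start of the interval (kb), with the 14 CpG blocks at 35% to 65% in every animal as orange diamonds at their block level and the 35% to 65% range shaded. Lower panel, share (%) of cytosines with a mean of 20% to 80% in bins of 50 kb, with the median bin of the table (10%) as a dashed line; the diamonds gather between 850 and 1250 kb.

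The intermediate cytosines were not spread evenly. In bins of 50 kb, the share of cytosines with a mean of 20% to 80% ranged from 7.14% in the first bin to 62.9% in the bin from 49350000, and 28 of 30 bins exceeded the median of 10% over the 8145 bins of the table with at least 20 cytosines. Of the 30 bins, 5 held fewer than 20 cytosines. From 49500000 to 49650000, 3 bins in a row held 56.9%, 53.9% and 57.5%, based on 350, 141 and 254 cytosines. Bins with such a share or a higher one made up 3.72%, 4.62% and 3.56% of the bins of the table. Another intermediate stretch lay at 48800000 to 48900000, with 55.9% and 61.9% on 68 and 63 cytosines.

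To look for stretches near 50%, reads were summed over CpG blocks, which are runs of at least 5 covered cytosines on either strand with neighbours at most 200 bp apart. Blocks were set by position and not by methylation. The interval held 208 of 35965 blocks, with 2468 cytosines. A block was called half-methylated when its summed reads gave 35% to 65% in each of the 12 animals, unmethylated when each animal was below 10%, and highly methylated when each was above 80%. These limits chose the blocks, so their levels are a description.

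Half-methylated blocks were 14 of the 208 blocks of the interval (6.73%), against 489 of all 35965 (1.36%). Unmethylated blocks were rarer in the interval than in the table (37 blocks, 17.8%, against 51.4%), and highly methylated blocks made up 15.4% against 12.5%. On the other 28 autosomes, the stretch at the same distance from the last covered cytosine held 53 half-methylated blocks among 2583 (2.05%). Chromosome 29 had the highest number among these 29 chromosome ends, and the second highest share after chromosome 8 with 6 of 76 blocks (7.89%). With wider limits of 30% to 70%, 28 blocks of the interval (13.5%) and 3.64% of all passed, and with narrower ones of 40% to 60%, 3 (1.44%) and 0.211%. Within the interval, the last 500 kb held 9 of the 14 half-methylated blocks among its 78 blocks, which was the highest number among the 465 bins of 500 kb with at least 20 blocks and the third highest share (11.5%). The middle 500 kb held 4 of 79 and the first 500 kb 1 of 51.

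The 14 half-methylated blocks are numbered here along the chromosome. Block 1 stood alone at 48686391 to 48686458. Block 2 at 49139892 to 49139977 and block 3 at 49319032 to 49319072 lay further along, before and after the cytosine at 49212824, whose closest gene is CD81. Blocks 4 (49388971 to 49389324) and 5 (49406398 to 49406605) came next. The remaining 9 blocks all fell between 49523151 and 49704216, at higher positions than the cytosine at 49212824. Where CD81 and IGF2 lie relative to these blocks in ARS-UCD1.2 was not checked. Block 8 (49541853 to 49542381) was the largest, with 29 cytosines, and it and block 9 (49542596 to 49542663, 6 cytosines) were separated by 215 bp only. Blocks 6 (49523151 to 49523202) and 7 (49524409 to 49524675) were also neighbours, with 1207 bp and no further block between them.

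The 4 half-methylated blocks with most cytosines were blocks 8, 4, 5 and 12. Block 8 had 52.5% ± 3.49 (SD over the 12 animals), with a lowest value of 44.3% in Tough, a Tough median of 54.9% and a highest value of 55.8%. In Tender its lowest, median and highest values were 47.2%, 52.7% and 54.2%. The Tough animals other than Tough 2 lay between 52.9% and 55.8%, so that the spread of that group came from 1 animal.

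Block 4, with 17 cytosines, had 50.3% ± 4.53 over the 12 animals. Tough ranged from 43.9% through a median of 52.1% to 52.9%, and Tender from 43.9% through 52.4% to 57.3%. The groups overlapped over almost their whole ranges.

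Block 5, with 14 cytosines, had 54.0% ± 4.94. Its Tough animals ran from 41.9% through 53.6% to 61.3% and its Tender animals from 50.7% through 54.9% to 58.4%. Tough 1 had the lowest value and Tough 3 the highest.

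Block 12 (49603253 to 49603416, 10 cytosines) had 46.6% ± 6.30. Tough ranged from 39.7% through 41.8% to 52.3% and Tender from 38.2% through 49.1% to 58.0%. The Tender median was higher, but the lowest value of all belonged to a Tender animal.

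The tightest block was block 6, with 7 cytosines and 44.3% ± 3.41. Its Tough animals ran from 37.0% through 42.4% to 46.8% and its Tender animals from 43.6% through 46.0% to 49.7%. The 14 block means lay between 44.3% and 54.2%, with a median of 48.8%, and the SD over the 12 animals was 3.41 to 8.05, lowest in block 6 and highest in block 1.

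The SD between animals was larger than the binomial SD of independent reads in 13 of these 14 blocks. In block 8, with 534 to 945 reads per animal summed over its cytosines, the binomial SD was 1.90 and the measured SD 3.49. In block 6, with 131 to 276 reads summed in the same way, the measured SD of 3.41 was no larger than the binomial value of 3.51. The overdispersion factor, which is 1 for binomial reads within groups, ranged from 1.0 in block 6 to 5.35 in block 13, with a median of 3.07 over the 14 blocks and of 3.49 over the 475 half-methylated blocks elsewhere. A read that covers several cytosines of a block is counted at each of them, so these sums are not independent reads. The binomial SD is then too small, and the 13 blocks do not show a spread beyond that of reads. The overdispersion factor moves as well.

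**Figure D2:**
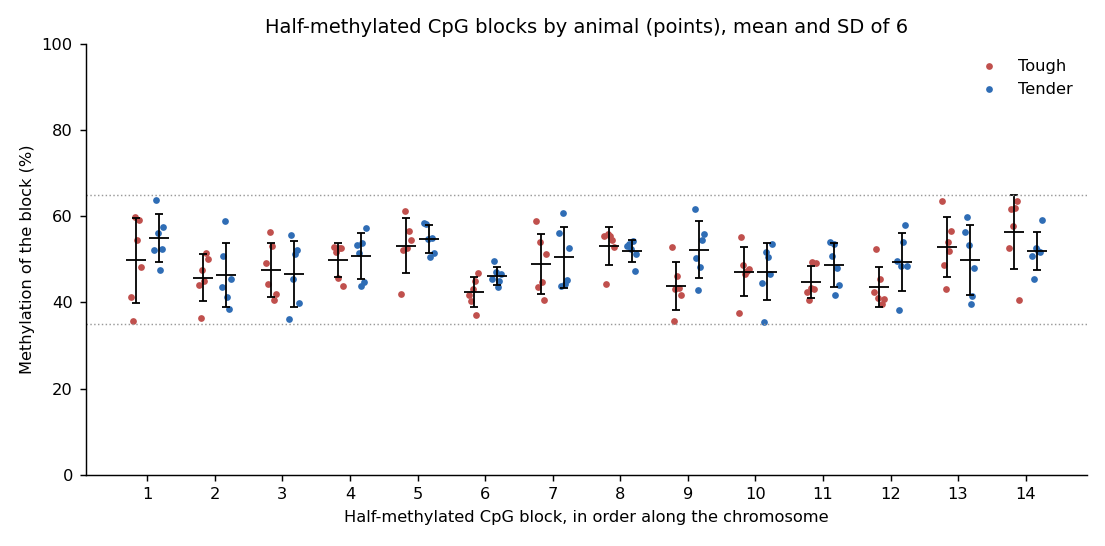
Methylation (%) of each of the 14 half-methylated CpG blocks, numbered along the chromosome, in every Tough (red) and Tender (blue) animal. Bars show the mean and SD of 6 animals and dotted lines the limits of 35% and 65% that chose the blocks; Tough and Tender overlap in each block.

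No block was found to differ between Tough and Tender. A logistic regression on group with an overdispersion correction was fitted to all blocks of the table, and a block was called at an adjusted p below 0.05 with a difference above 25%. No block was called in the interval or in the table (0.0% of 35965). Without the condition on the size, 45 blocks of the table (0.125%) and 0 of the 208 had an adjusted p below 0.05, while an unadjusted p below 0.05 was found for 20 of the 208 (9.62%) against 7.41% of all blocks. With limma, 0 blocks had an adjusted p below 0.05, and 7 of the 208 (3.37%) an unadjusted p below 0.05 against 4.23% of all.

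Differences of the half-methylated blocks, Tender minus Tough in pooled reads, ran from -4.64% in block 14 to 8.41% in block 9, with 10 higher in Tender and 4 higher in Tough. The limits of 35% and 65% restrict these differences. Block 9 had 43.8% ± 5.59 in Tough and 52.3% ± 6.61 in Tender (SD, n = 6 each), and its adjusted p in the logistic regression, 0.464, was the lowest of the 14. Its Tough animals ran from 35.8% through 43.2% to 52.8% and its Tender animals from 42.9% through 52.4% to 61.8%, so the ranges overlapped. Its neighbour block 8 moved the other way, with a difference of -1.41%.

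The lowest p of a block in the interval belonged to none of the half-methylated ones. The block at 49725849 to 49726379, with 28 cytosines, had 8.88% ± 1.59 in Tough and 6.29% ± 1.17 in Tender (SD, n = 6 each). Tough ran from 6.92% through 9.08% to 10.8% and Tender from 4.40% through 6.16% to 7.81%. The difference of -2.59% had an adjusted p of 0.172 in the logistic regression.

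A level near 50% over a block was not shared by all of its single cytosines. Of the 137 cytosines in the 14 blocks, 56 had a mean between 35% and 65%, 15 were below 20% and 15 above 80%. In block 4, cytosine means ran from 15.1% to 84.9%, and 5 of 17 cytosines lay between 35% and 65%. In block 8 they ran from 7.05% to 94.3%, with 7 of 29 in that range. Block 1 included a cytosine with a mean of 0% (48686429), while its others ran from 48.3% to 77.6%. Block 7 included one at 0.873% (49524511), with a highest of 77.8%. Such cytosines lower the summed level of their block. Block 3 was the most uniform, with means from 30.8% to 60.8% and 5 of 6 cytosines in the range, and block 14 followed with 43.0% to 75.5% and 4 of 5. The SD among the cytosines of a block had a median of 23.1 in the 14 blocks and of 19.4 in half-methylated blocks elsewhere.

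**Figure D3:**
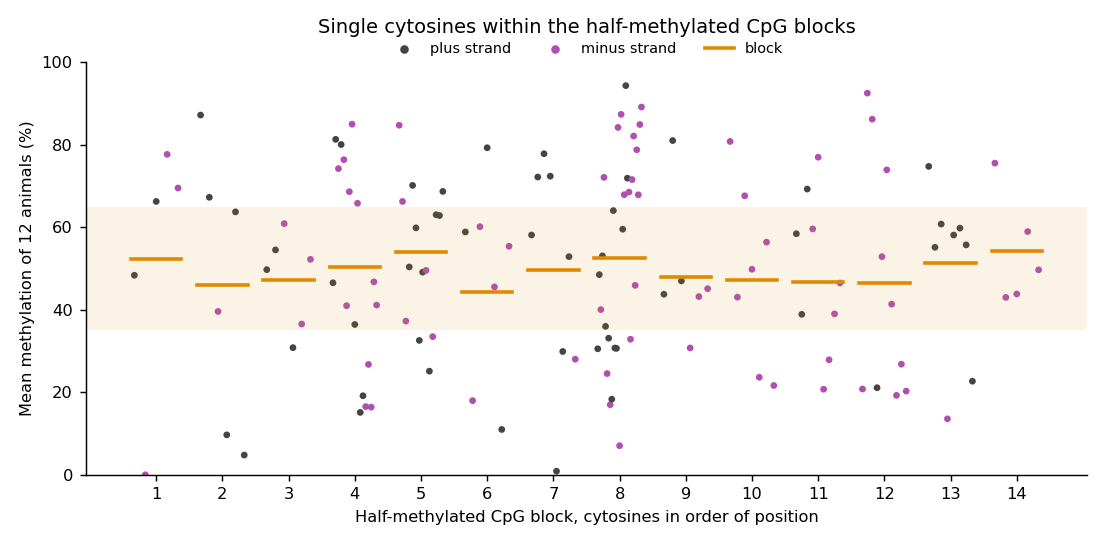
Mean methylation (%) over the 12 animals of each cytosine within the 14 half-methylated CpG blocks, in order of position within each block, plus strand in grey and minus strand in purple. Orange lines give the level of the summed block; cytosines of block 8 run from 7.05% to 94.3% around its level of 52.5%.

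Stretches in which each cytosine was at intermediate level were therefore sought separately, a search added after the data had been seen. Runs of at least 8 consecutive cytosines, each with a mean between 30% and 70%, numbered 383 in the table and 7 in the interval. Per 100 blocks with at least 8 cytosines, this was 6.48 in the interval and 1.83 in the table. None of the 7 runs lay in a half-methylated block, since in each of their blocks at least 1 animal was outside 35% to 65%. Of the 7 runs, 5 fell between 49510293 and 49615135, among the half-methylated blocks, 1 lay at 49227288 to 49227387 and 1 at 49970605 to 49970705.

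The longest run, at 49532117 to 49532331, held 15 cytosines with means from 36.6% to 67.6%. Its summed level was 51.6% ± 7.49 over the 12 animals. Tough animals ran from 45.0% through 53.3% to 57.7% and Tender animals from 33.4% in Tender 11 through 55.4% to 61.0%. Its block of 21 cytosines, at 52.5%, was the one nearest to meeting the half-methylated rule without doing so, since only Tender 11, at 34.5%, was outside the limits. Just inside the rule stood block 10, whose lowest animal had 35.5%.

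A pair of runs at the start of this stretch were closer to 40% than to 50%. The run at 49510293 to 49510353, with 9 cytosines, had 42.8% ± 5.22 and ranged from 34.5% to 51.9%. The run at 49511650 to 49511780, with 12 cytosines between 34.0% and 53.8%, had 41.6% ± 7.31, with Tough at 29.98% through 37.2% to 46.8% and Tender at 39.2% through 42.9% to 58.9%. The first belonged to a block of 32 cytosines (49510286 to 49511040) at 32.8% ± 3.06, in which all 12 animals lay between 28.1% and 38.4%.

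The run at 49611243 to 49611526 held 11 cytosines and had 51.4% ± 6.87. Tough animals ran from 37.3% through 46.8% to 53.7% and Tender animals from 48.3% through 56.2% to 62.8%. Near it, the run at 49615099 to 49615135, with 8 cytosines in 37 bp, had 41.4% ± 9.61. Tough 2 had 15.5% there, while the highest animal, Tough 3, had 49.7%. The runs were chosen by their means, so no test is given on their levels.

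Both strands of a CpG usually carried the same level. For 125 CpGs of the interval both strands were covered and their mean was 20% to 80%, and the strands differed by a median of 6.14%, compared with 5.80% over 9114 such CpGs of the table. Strands differed by more than 25% at 17 of the 125 CpGs (13.6%), against 11.9% in the table.

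Next to the intermediate stretches stood unmethylated blocks with sharp or graded flanks. The largest unmethylated block of the interval, at 49548594 to 49549256, held 98 cytosines at a level of 1.35%, and no animal exceeded 2.14%. Covered cytosines outside blocks stood nearer to it than other blocks and were methylated, with means of 68.4% to 98.6% at 4 cytosines 598 to 1057 bp before it and of 59.5% to 97.2% at 5 cytosines 1159 to 3017 bp after it. The block before it, 2019 bp away, was at 63.5% ± 9.24, and half-methylated blocks 8 and 9 lay 6213 and 5931 bp before it. The next block after it, 29113 bp away, was half-methylated block 10.

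The second largest, at 49412913 to 49413829, held 86 cytosines at 1.64% (0.903% to 2.31% over the 12 animals) and had a graded flank. On the side of lower positions, covered cytosines outside blocks between 49408791 and 49411245 had means of 50.1% to 83.3%. From there the level was 55.2% ± 8.71 at 49411245 to 49411535, where single cytosine means ran from 22.9% to 82.1%. It was 23.0% ± 8.42 at 49411826 to 49411929 and 11.4% ± 8.51 at 49412168 to 49412208. It then was 5.58% ± 1.72 at 49412434 to 49412699. The animals differed widely in the first 3 of these blocks, and the block at 49411826 ran from 8.13% to 38.4%. Half-methylated block 5 lay a few kb before this slope, and 3 unmethylated or nearly unmethylated blocks at 49408254 to 49408791 stood between them, with 3.87%, 1.34% and 2.21%.

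A border was also visible within 1 block at 48741088 to 48742036, which held 70 cytosines. The first 54 cytosines, up to 48741680, had 14.6% ± 2.21 when their reads were summed, and the last 16, from 48741864, had 70.2% ± 5.37. Single cytosines did not follow a clean step. Their means ran from 1.44% to 64.5% before the border and from 18.5% to 92.4% after it. Split by group, the last 16 cytosines had 73.2% ± 4.54 in Tough and 67.1% ± 4.51 in Tender. The dividing point was placed where the cytosine means separated best, so this split is a description.

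**Figure D4:**
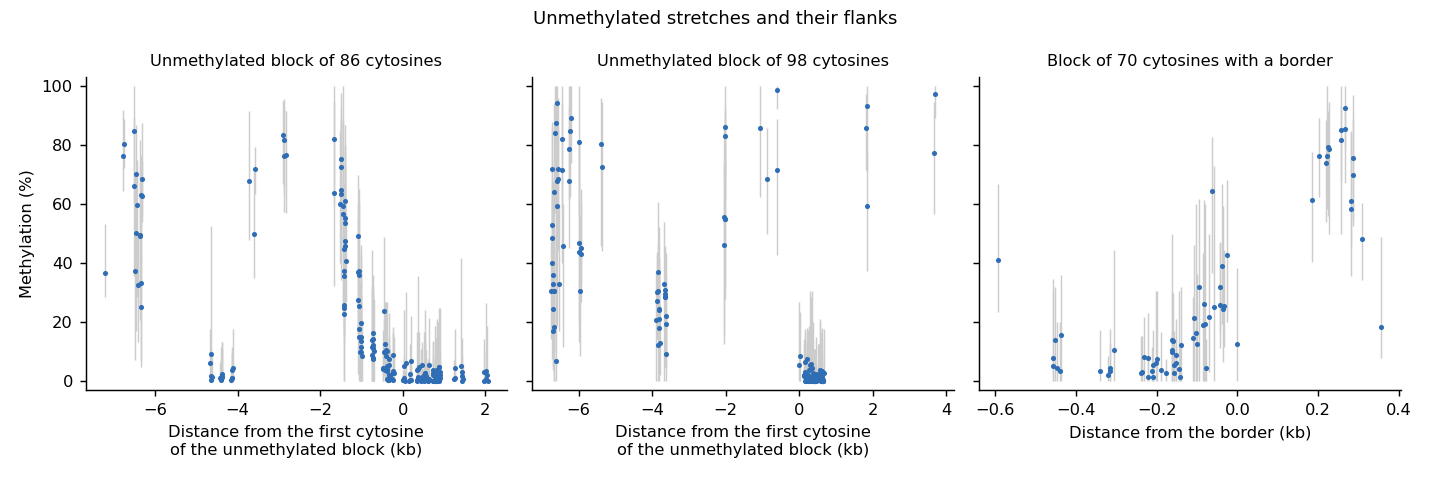
Methylation (%) of single cytosines, as the mean over the 12 animals (blue points) and the range from the lowest to the highest animal (grey lines), around the unmethylated blocks of 86 and 98 cytosines (left and middle, distance in kb from their first cytosine) and within the block of 70 cytosines with a border (right, distance in kb from the last cytosine before the border). The left panel shows levels that go from 55.2% to 1.64% in steps, the middle panel cytosines at 71.6% and 98.6% 598 and 614 bp before the unmethylated block.

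Towards the end of the interval, 2 adjacent blocks at 49964208 to 49964746 and 49964961 to 49965308 held 65 and 46 unmethylated cytosines at 1.03% and 0.957%. The first intermediate block after them, at 49970605 to 49970705, was at 41.1% ± 5.60 over the 12 animals and was also 1 of the 7 runs. The block at 49974053 to 49974196, with 23 cytosines, was at 38.6% ± 11.5 and varied far more between animals. It ran from 14.3% in Tough 3 to 52.8% in Tender 8, with an overdispersion factor of 34.8, and the groups overlapped (34.5% ± 11.2 in Tough and 42.7% ± 11.2 in Tender, adjusted p = 0.909 in the logistic regression). A methylated block of 49 cytosines followed at 49977833 to 49978228, with 79.8% ± 3.29.

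The block with the largest SD between animals was at 49038443 to 49038479, with 5 cytosines and 72.2% ± 14.8. Tough ran from 45.0% through 65.5% to 89.6% and Tender from 64.5% through 74.2% to 98.3%. Over the 50 blocks of the interval whose mean was 35% to 65%, the median SD was 7.05, compared with 7.79 over the 2987 such blocks of the table.

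Single cytosines were tested for a difference between Tough and Tender with the same logistic regression over the whole table. A differentially methylated cytosine (DMC) needed an adjusted p below 0.05 and a difference above 25%. The interval held 1 DMC among its 3267 cytosines, out of 121 over all cytosines (0.019%). Without the condition on the size, 4 cytosines of the interval (0.122%) and 0.135% of all had an adjusted p below 0.05. An unadjusted p below 0.05 was found for 267 (8.17%) against 8.29% of all, which is close to the background. With limma, 192 cytosines of the interval (5.88%, against 4.91% of all) had an unadjusted p below 0.05. The groups did not overlap at 6 cytosines of the interval (0.184%) and at 0.0965% of all. The 4 cytosines with an adjusted p below 0.05 are named here after their values had been seen, in order of p as A to D.

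Cytosine A, at 49624842 on the plus strand, was methylated in every Tough animal and in no Tender animal. Tough ran from 10.5% through 14.6% to 22.2%, and the 6 Tender animals were at 0. Pooled over these 6, 0 of 127 reads were methylated before scaling, which allows a pooled level of up to 2.36% (3 of 127 reads). Coverage was 13 to 35 reads per animal, so a single Tender animal allows a higher level. The difference of -14.5% had an adjusted p of 0.000501 in the logistic regression, and was below the 25% that a DMC needs. The 4 cytosines within 50 bp on the same strand had differences from -9.89% to -1.06%, with a lowest adjusted p of 0.109.

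Cytosine B, the DMC at 49212824 on the plus strand, was higher in Tender. Tough ran from 5.88% through 16.3% to 25% and Tender from 28.6% through 41.8% to 60%, without overlap. The means were 14.6% ± 7.07 and 42.6% ± 11.96 (SD, n = 6 each), and the pooled difference of 27.7% had an adjusted p of 0.0128 in the logistic regression. Coverage was low, at 12 to 28 reads per animal before scaling. The 2 others within 50 bp on the same strand had differences of -3.42% and 7.17%, with a lowest adjusted p of 0.661. The study's annotation places it between genes and outside CpG islands, with CD81 as the closest gene.

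Cytosine C, at 49183834 on the plus strand, was fully methylated in Tender. All Tender animals were at 100%, and Tough ran from 75.0% through 92.2% to 100%. The groups thus touched, and the difference was 9.01% with an adjusted p of 0.0356 in the logistic regression. Its adjusted p was 0.0692 on the reads before scaling.

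Cytosine D, at 48813444 on the plus strand, was also higher in Tender. Tough ran from 43.8% through 56.2% to 80% and Tender from 76.7% through 80.7% to 89.8%, so that 1 Tough animal reached into the Tender range. The difference of 21.3% had an adjusted p of 0.0497 in the logistic regression. The 3 cytosines within 50 bp on the same strand had differences of 10.95% to 19.9%, but the same reads can cover them and D. The one at 48813449 did not overlap between the groups (63.1% ± 13.8 in Tough and 85.0% ± 5.56 in Tender, adjusted p = 0.0502 in the logistic regression). The block that holds D, at 48813343 to 48813592 with 8 cytosines, differed by 8.04%, with an adjusted p of 0.810 in the logistic regression.

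**Figure D5:**
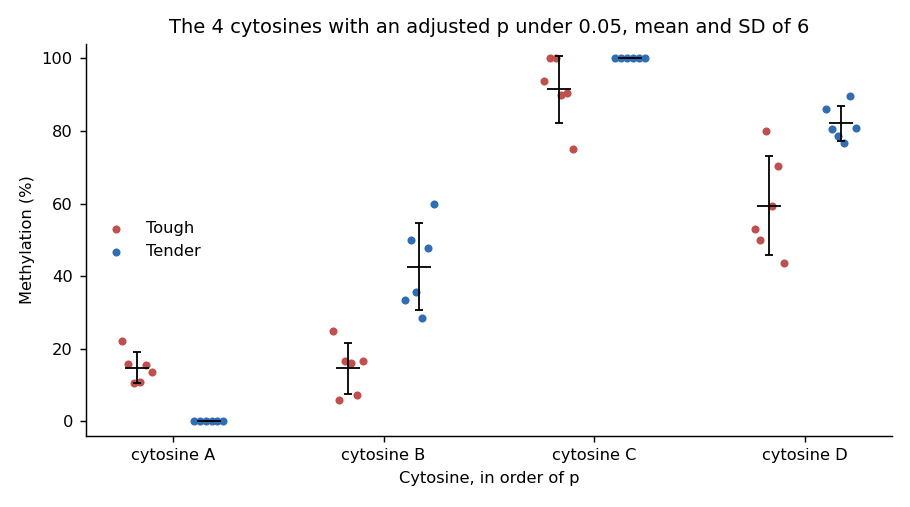
Methylation (%) of the 4 cytosines with an adjusted p below 0.05 in the interval, in order of p (A at 49624842, B at 49212824, C at 49183834 and D at 48813444), in every Tough (red) and Tender (blue) animal, with the mean and SD of 6. Tough and Tender are apart at A and B and touch or overlap at C and D.

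These calls rest on the chi-square test. With an F-test in its place, the adjusted p was 0.806 for each of the 4 cytosines, and limma gave 0.255 to 0.985. Neither of these tests called a cytosine anywhere in the table at an adjusted p below 0.05.

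Windows of 100 bp gave no differentially methylated region in the interval, with 0 of 955 windows against 42 of 193249 (0.0217%) in the table. At an adjusted p below 0.05 without the condition on the size there were 3 windows (0.314%, against 0.288% of all), and at an unadjusted p below 0.05 there were 85 (8.90%, against 8.76%). With limma, no window had an adjusted p below 0.05, and 42 (4.40%, against 5.04%) had an unadjusted p below 0.05. All 3 windows were higher in Tender. The one with most cytosines, 4 in 48574901 to 48575000, went from 12.6% ± 2.63 in Tough to 22.7% ± 7.13 in Tender (SD, n = 6 each), with a difference of 11.2% and an adjusted p of 0.0328 in the logistic regression. The block that holds these cytosines, at 48574967 to 48575011 with 6 cytosines, differed by 7.55%. Its adjusted p was 0.359 in the logistic regression. The other windows held 1 cytosine each, and differed by 12.6% at 49597901 to 49598000 and by 12.1% at 49730001 to 49730100.

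Over the whole interval, Tender exceeded Tough in mean methylation by 0.730%. Tough ran from 43.0% through a median of 44.1% to 44.8% and Tender from 44.1% through 44.7% to 45.5%, and the ranges overlapped. Permuting the group over the animals (exact, two-sided) gave p = 0.0584, where a design of 6 against 6 can reach 0.00216 at best. In the 5 animals with higher bisulfite conversion the difference was 1.18% and in the 7 with lower conversion 0.307%. Permuting the groups only within these conversion groups, a test added after the data had been seen, gave p = 0.06 (exact, 350 splits). Restricted to the 724 cytosines with a coverage of at least 20 in every animal, the difference was 1.35%, with 40.1% ± 0.646 in Tough and 41.5% ± 0.515 in Tender (SD, n = 6 each), and the exact permutation p was 0.00216, the smallest that this design can give. The other 176074 cytosines at that coverage differed by 0.369% (exact permutation p = 0.126). Among cytosines with a mean of 20% to 80%, at any coverage, Tender was higher by 1.40% over the 1209 of the interval (exact permutation p = 0.0693) and by 1.26% over the 111829 outside it (exact permutation p = 0.0173), which is about as much. With both conditions together, the differences were 2.68% over 287 cytosines (exact permutation p = 0.00216) and 0.982% over 33316 (exact permutation p = 0.0476). These restricted sets were added to the planned comparison over all cytosines of the interval. Their p-values are not adjusted for the number of sets, and they were not split by conversion group here. The difference between the interval and the rest was tested over all cytosines only, where Tender exceeded Tough by 0.329% more in the interval (exact permutation p = 0.130). In the 3 successive stretches of 500 kb along the chromosome, the means were 47.3% ± 0.657, 48.0% ± 0.914 and 38.6% ± 1.01 in Tough and 47.8% ± 0.451, 48.7% ± 0.718 and 39.5% ± 0.620 in Tender (SD, n = 6 each).

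One cytosine of a half-methylated block separated a single animal from the rest. At 49541969 on the minus strand, in block 8, Tender 7 had 10 of 12 reads methylated before scaling (83.3%, 95% Wilson interval 55.2% to 95.3%). The other 11 animals together had 0 of 247 reads, which allows a pooled level of up to 1.21% (3 of 247 reads). Such cytosines, with 11 animals at most 5% and 1 at least 50% or with 11 at least 95% and 1 at most 50%, were 2 of the 3267 in the interval and 89 in the table (0.014%). The other was at 49748765 on the minus strand, where Tender 8 had 6 of 22 reads methylated (27.3%, 95% Wilson interval 13.2% to 48.2%) and the others lay between 95.2% and 100%. Whether the animals differ in DNA sequence at these 2 cytosines was not tested.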

How the data were processed

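The authors cut genomic DNA with MspI and sequenced RRBS libraries. Trim Galore 0.4.1 served for trimming and Bismark 0.23.0 for alignment. The Nelore (Bos indicus) reads were thus aligned to a Bos taurus reference genome (ARS-UCD1.2). In methylKit 1.8.1 the authors chose to keep cytosines with at least 10 reads in all 12 animals, to drop the most covered ones and to scale coverage. The deposited coverage and numbers of methylated and unmethylated reads are a score, not counts, since the authors had scaled each animal by its own factor (1 to 1.27) and rounded. The unscaled reads were worked back as an alternative setting, with 0 values left unexplained. Depth is given in the report.

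The members, block limits and lists were chosen with earlier results of these data known. The logistic regression (McCullagh-Nelder overdispersion, not below 1, chi-square test), planned for counts, was kept because methylKit fits it to scaled reads, and p-values were adjusted by Benjamini-Hochberg over the whole table. The regression was tested on simulated reads of single cytosines. Sums over blocks or windows, in which a read can count at several cytosines, were not simulated. Means of the interval were compared by exact permutation of the groups over animals (two-sided). Python 3.11.15, numpy 2.4.6, pandas 2.3.3, scipy 1.17.1, matplotlib 3.10.9 and limma 3.58.1 (log2 ratios with a pseudocount of 1) were used. Higher or lower bisulfite conversion was taken from the study's spike-in controls. The labels give shear force at 7 days of aging, the paper at a later day.

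Genes to name were IGF2, H19 and the 19 other genes of the cluster and its flanks sought above. Segments at H19, IGF2, KCNQ1, KCNQ1OT1, CDKN1C and PHLDA2 had been planned. They were not analysed here, as no annotation of ARS-UCD1.2 was used, and 3 stretches of 500 kb were given in their place with no test. Sequences are not printed for the same reason. Runs of intermediate cytosines, these stretches, the single cytosines A to D and the comparison with other chromosome ends were chosen once the data were known.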

Additional observations from a re-analysis of the deposited data

Results flagged for a closer look

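Within each group of 6, the gap between an extreme animal and its nearest neighbour was compared with the range of the group (Dixon's ratio, 95% critical value) in 58 groups of values, made of the interval and its 3 stretches of 500 kb, the 14 half-methylated blocks, the 7 runs and cytosines A to D. Chance alone flags about 1 in 20 groups. Only 1 was found, Tough 2 in half-methylated block 8 (49541853 to 49542381), with 44.3% where the nearest Tough animal had 52.9% and the highest 55.8%. Tough 2 also had the lowest value of the 12 animals in 5 of the 14 half-methylated blocks and the lowest mean of the interval, 43.0%, and of the whole table, 28.7%. Without Tough 2, 16 blocks were half-methylated in each remaining animal, and without Tender 12 the number was also 16.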

How the results depend on the processing

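Depth limits single cytosines, and gene positions were not used. The excess of half-methylated blocks over the share in the table held under every alternative tried, but their number moved with the rule: 28 between 30% and 70%, 3 between 40% and 60%, 4 with at least 10 cytosines per block and 2 at a coverage of at least 20, where the median block level fell to 41.5% and 5 of the 14 blocks kept no cytosine. Leaving out 1 animal gave 14 to 16 blocks, but the rule asks for every animal, so this could not lower the number.

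The mean difference of the interval, 0.730% in the report, was 1.35% at a coverage of at least 20 (exact permutation p = 0.00216, not adjusted). When 1 animal was left out, the mean difference over all cytosines ranged from 0.517% to 0.878%, with exact permutation p from 0.0325 to 0.128. It passed 0.05 without Tough 3 (p = 0.0368, exact permutation), Tough 4 (p = 0.0325) or Tender 11 (p = 0.0476). Minus the animal's mean over all other cytosines it was 0.329% (exact permutation p = 0.130).

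The single DMC became 0 with the F-test, with limma and at a coverage of at least 20, 3 with a difference above 10% and 7 without the overdispersion correction. Leaving out 1 animal gave 0 to 3 DMCs, with 0 without Tender 12, 2 without Tender 11 and 3 without Tough 3. Cytosines A and B kept an adjusted p below 0.05 in the logistic regression without each animal in turn (at most 0.00173 and 0.0464), C in 6 of 12 such fits and D in 3 of 12. Differentially methylated windows numbered 3 with a difference above 10%, and 0 to 1 when 1 animal was left out, with 1 without Tough 3. Differing blocks stayed at 0 in all settings run. No paired analysis was possible because the groups share no animal numbers.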
